A study of Mus musculus with 64 samples.

Results

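The 10 adipocyte genes described here were Adipoq, Cfd, Lep, Retn, Plin1, Plin4, Cidec, Cidea, Lipe and Cebpa. They were taken by gene symbol from the count and TPM tables of a mouse study of arrhythmogenic cardiomyopathy, and all 10 had a row among 39152 named genes. Bulk RNA sequencing had been done on the right ventricle (RV) and left ventricle (LV) of 32 C57BL6 animals, which gave 64 libraries.

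All animals carried floxed alleles of Pkp2, the gene of the desmosomal plaque protein plakophilin-2. In the cKO groups a tamoxifen-inducible Cre under the cardiac α-myosin heavy chain promoter deleted the gene in cardiomyocytes, so other heart cells kept it, and the WT animals were littermates without Cre. WT (9 animals) and untreated cKO (4 animals) received vehicle. The other 19 animals were cKO mice given an adeno-associated virus serotype 9 carrying mouse Pkp2. AAV_3E13 (8 animals) received 3e+13 vector genomes per kg and AAV_1E14 (5 animals) 1e+14, both dosed 1 week before tamoxifen by label. AAV_1E14_2.5wk (6 animals) received 1e+14 at 2.5 weeks after tamoxifen. The sources do not give a single time for the early dose relative to tamoxifen. Collection of untreated cKO hearts came before that of the other groups, so the cKO group and age at collection cannot be told apart. WT and vector hearts were collected at 51 weeks by the series title. The study counts this time from tamoxifen induction, so it is not an age, and gives 4 weeks for untreated cKO hearts. Ages and sexes of single animals were not in the labels.

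White adipocytes store triglyceride in a lipid droplet coated by perilipins and CIDE proteins, release it through lipases, and secrete adipokines. The transcription factors PPARγ and C/EBPα switch this programme on, and C/EBPα is also used by hepatocytes and by myeloid cells. Replacement of myocardium by fibrous and fatty tissue is the hallmark of the human disease, whereas normal mouse ventricle holds little fat, most of it attached to its surface. Some of these genes are therefore read as fat markers, while Lipe, Plin4 and Cidea are also known from muscle or brown fat.

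Start-site sequences are shown for the regulator and for 2 adipokines, since Cebpa was the gene that rose in cKO hearts while Adipoq and Lep stayed near 0. They run from 250 bases before the start of the canonical transcript to 30 bases from it, 5′ to 3′ on the gene's strand (GRCm39, GENCODE M39). Capitals mark TATAAA or the C/EBP letters TTNNGNAA on either strand. Cebpa is at chr7:34818478-34818757, Adipoq at chr16:22965036-22965315 and Lep at chr6:29059966-29060245, all on the plus strand.
Cebpa: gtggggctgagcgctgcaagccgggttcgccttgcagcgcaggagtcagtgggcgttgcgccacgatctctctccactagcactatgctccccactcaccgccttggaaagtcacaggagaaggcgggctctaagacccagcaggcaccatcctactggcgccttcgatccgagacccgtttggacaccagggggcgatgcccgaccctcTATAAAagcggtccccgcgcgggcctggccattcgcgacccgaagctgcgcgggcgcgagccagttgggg
Adipoq: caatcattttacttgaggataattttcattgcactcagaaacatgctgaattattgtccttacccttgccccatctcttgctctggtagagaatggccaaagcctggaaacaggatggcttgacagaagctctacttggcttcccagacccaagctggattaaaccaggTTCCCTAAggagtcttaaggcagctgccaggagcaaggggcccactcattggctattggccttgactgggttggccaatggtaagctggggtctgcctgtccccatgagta
Lep: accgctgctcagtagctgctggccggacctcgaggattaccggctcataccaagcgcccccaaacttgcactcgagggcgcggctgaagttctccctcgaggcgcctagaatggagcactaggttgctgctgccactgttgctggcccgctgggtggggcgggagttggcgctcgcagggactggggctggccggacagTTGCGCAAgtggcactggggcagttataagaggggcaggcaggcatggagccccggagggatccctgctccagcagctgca
Of 21751 such windows, 39.2% held TTNNGNAA, 0.198% the exact palindrome TTGCGCAA, 12.7% TATAAA and 14.2% AGGTCA, the letters of a PPAR binding repeat. Among the 10 genes TTNNGNAA was found in Adipoq, Plin1, Cidec and Lep, TTGCGCAA in Lep (position -51, which also counts under TTNNGNAA), TATAAA in Cebpa (position -40) and AGGTCA in none. A match of letters is a description and not a binding site.

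Libraries held 7.96 M to 14.6 M counts (M, 1e+06), of which 5.34 M to 10.2 M remained without the mitochondrially encoded genes. CPM are counts per 1e+06 of these after TMM scaling, and 1 count was worth 0.0876 to 0.184 CPM. Pkp2, the check of the labels, was at 150.2 ± 20.4 CPM in WT RV, 58.9 ± 28.3 in cKO RV, 193 ± 18.8 in WT LV and 66.9 ± 24.0 in cKO LV (mean ± SD, n = 9 and 4). In AAV_3E13, AAV_1E14 and AAV_1E14_2.5wk it was 297 ± 82.3, 1306 ± 546 and 1928 ± 979.9 CPM in RV and 299 ± 49.1, 1419 ± 692 and 2321 ± 1580 in LV (n = 8, 5 and 6). By label the RV and LV library of a number came from the same animal. The libraries AAV_1E14_2.5wk_RV_5814 and AAV_1E14_2.5wk_LV_5814 differed in sex-linked genes, with 262 CPM of Xist and 98.8 of the Y-linked Ddx3y in RV against 3073 and 0 in LV. Calls that use this mismatched pair are also given without it.

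The fat-restricted genes came out at or near 0 in most libraries of every group. Adipoq, Cfd, Lep, Retn, Plin1 and Cidec together held 456 counts in all 64 libraries, out of 500.0 M counts used. The sum of the 6 was 0 in 28 libraries and its median was 1 count. The cKO hearts, the diseased and untreated group, held the fewest of these counts in total, 8 in 8 libraries. The typical cKO library was not the lowest. Median sums were 0.5 in cKO RV and 1 in cKO LV, against 0 in AAV_1E14 RV and in AAV_1E14 LV. The cKO hearts were also collected earlier than those of the other groups. In bulk tissue, fewer cells of a type and less RNA per cell cannot be told apart. Limits set by a count of 0 cover counting error only.

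The level per length sets these genes apart from lipid genes that the heart itself uses. Median TPM over 64 libraries was 0 for Adipoq, Cfd, Lep, Retn, Plin1 and Cidec, 0.975 for Cebpa, 2.92 for Plin4, 4.30 for Cidea and 6.26 for Lipe. Fabp4, a fatty acid carrier shared by adipocytes and capillary endothelium, stood at 310.2 TPM, and Pnpla2, the lipase that starts triglyceride breakdown, at 138 TPM. The heart perilipins Plin2 and Plin5 stood at 36.1 and 14.7 TPM. Neighbours in the order Cebpa, Plin4, Cidea and Lipe overlapped widely, since their lowest to highest values were 0 to 18.1, 0 to 10.2, 0.841 to 8.26 and 1.55 to 17.8 TPM.

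**Figure D1:**
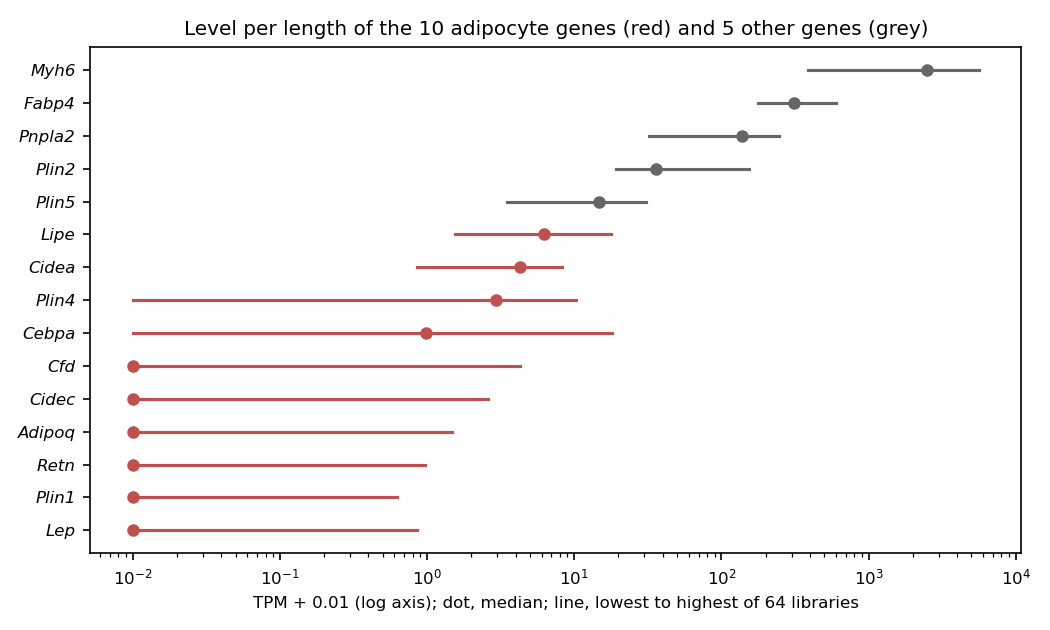
Level per length (TPM + 0.01, log axis) of the 10 adipocyte genes (red) and 5 other genes (grey); the dot is the median and the line runs from the lowest to the highest of 64 libraries. The 6 fat-restricted genes have a median of 0, and Fabp4 and Myh6, the cardiac myosin heavy chain, lie far to the right at 310.2 and 2499.8 TPM.

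Among the secreted products, Adipoq (chr16:22964106-22976810) encodes adiponectin, the most abundant adipokine of white fat. It had 83 counts in all, at least 1 count in 25 libraries and at most 11 counts. In RV the libraries held 28 counts in WT (5 of 9 libraries with a count), 0 in cKO (of 4), 16 in AAV_3E13 (4 of 8), 1 in AAV_1E14 (1 of 5) and 5 in AAV_1E14_2.5wk (4 of 6). In LV they held 22 in WT (5 of 9), 1 in cKO, 4 in AAV_3E13, 2 in AAV_1E14 and 4 in AAV_1E14_2.5wk. Every group overlapped WT, because WT itself had 4 libraries at 0 in each ventricle. A count of 0 in cKO RV allows a level of up to 0.0777 CPM (3 counts over the group), against a WT RV mean of 0.465 ± 0.623 CPM (n = 9).

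Adipoq did not pass the filter on low counts of the edgeR test, so its groups were compared with exact two-sided permutation tests of mean log2(CPM + 0.5), which are unadjusted. The difference of cKO from WT was -0.71 on that scale in RV and -0.56 in LV, with an exact permutation p of 0.172 and 0.183. For the 3 vector groups the exact permutation p against WT ran from 0.0800 to 0.472 over both ventricles, in each case with the lower mean in the vector group. The smallest p that 4 against 9 libraries allow is 0.00140. None of the 8 differences passed 0.05, which does not show that the groups were alike.

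Cfd (chr10:79726668-79728496) encodes adipsin, the serine protease that activates factor B of the alternative complement pathway and that fat cells secrete in bulk. It had the most counts of the 6 genes, 188, but they lay in 11 libraries and the other 53 were at 0. In WT RV 3 libraries held 23, 34 and 36 counts and 6 held 0. Elsewhere the counts stood in lone libraries, namely 26 in AAV_1E14_2.5wk LV, 16 in AAV_3E13 RV, 13 in AAV_1E14 RV, 11 in WT LV, 14 and 10 in AAV_3E13 LV and 4 in cKO LV, with 1 count in another WT LV library. Cfd was thus present at 10 counts or more in a few hearts and not detected in most others of the same groups.

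Lep (chr6:29060216-29073877), the gene of the satiety hormone leptin, had 12 counts in 9 libraries and never more than 3. Retn (chr8:3705324-3710689) encodes resistin, which mouse white adipocytes secrete. It had 54 counts in 17 libraries and at most 8. No cKO library held a Retn count, and 6 libraries of other groups held more than 3. Neither hormone gene passed the filter on low counts of the edgeR test between 2 groups.

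The droplet proteins of white fat were as scarce. Plin1 (chr7:79369966-79382718), the perilipin that gates lipolysis in adipocytes, had 29 counts in 6 libraries. WT_RV_5819 held 10 and WT_LV_5803 held 9, AAV_3E13_LV_2045 and AAV_1E14_LV_5726 held 4 each, and 2 others held 1 each. No RV library outside WT held a count of it. Cidec (chr6:113400691-113412721) encodes the protein that fuses droplets into the single large droplet of white adipocytes. It had 90 counts in 22 libraries and at most 12, with 37 counts in 4 of 9 WT RV libraries and 1 count each in cKO RV and cKO LV.

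Fat counts were not spread evenly over libraries. The 7 libraries with 20 or more counts of the 6 genes held 286 of the 456, or 62.7%. They were WT_RV_5803 with 60 counts, WT_RV_5819 with 56, WT_RV_2031 with 47, AAV_1E14_2.5wk_LV_5806 with 44, AAV_3E13_RV_5768 with 30, WT_LV_5803 with 28 and AAV_3E13_LV_5768 with 21. The share in these 7 differed by gene and was highest for Cfd, at 83.0%. It was 65.5% for Plin1, 51.9% for Retn, 48.9% for Cidec, 44.6% for Adipoq and 16.7% for Lep. WT RV held 178 counts, 163 of them in 3 libraries and 15 in the other 6. The 8 cKO libraries held 2 in RV and 6 in LV. The WT RV sum of the 6 genes thus rested mostly on 3 hearts. Single genes differed. WT_RV_5813, outside the 3, held 6 counts of Adipoq and 7 of Cidec, and WT_RV_5819 held 10 of the 11 WT RV counts of Plin1.

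**Figure D2:**
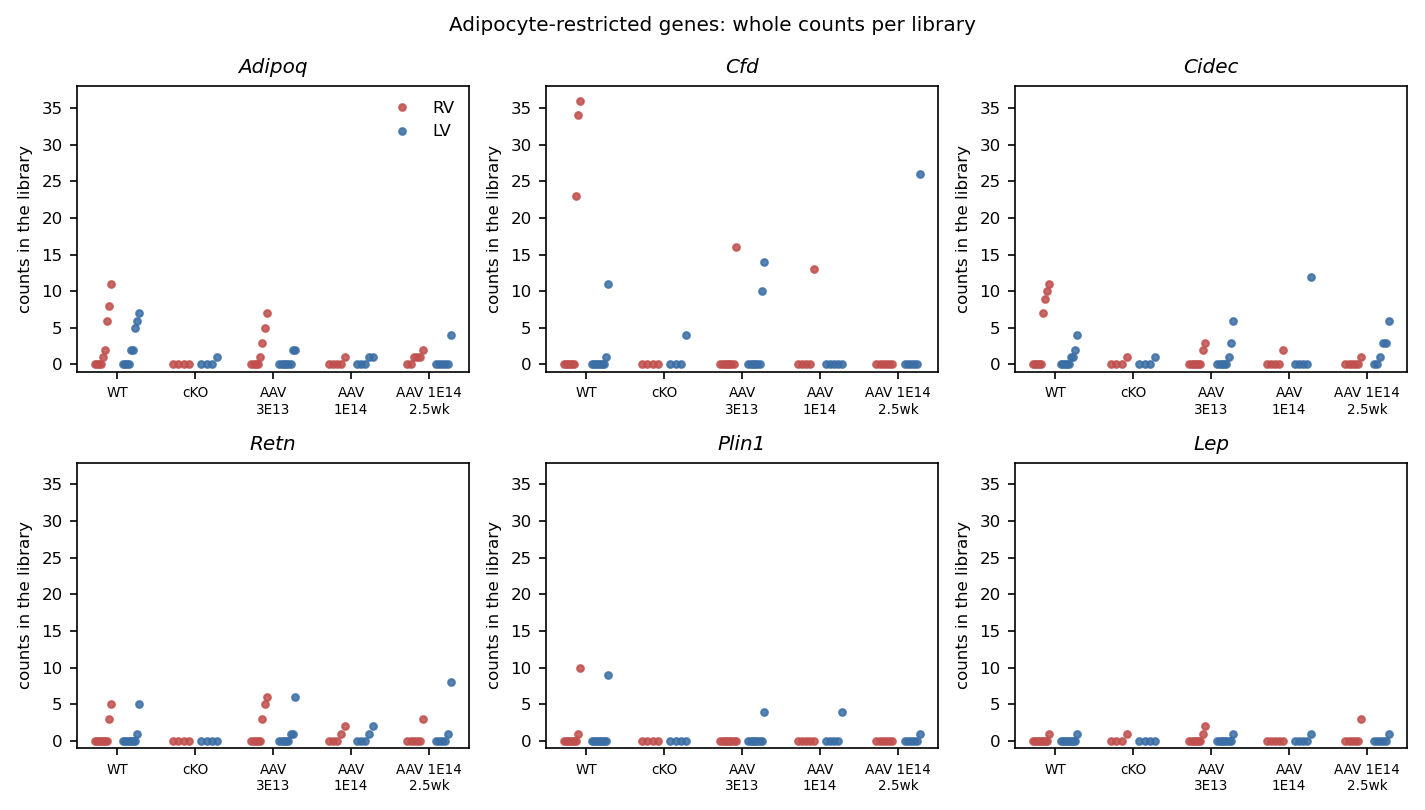
Whole counts of 6 adipocyte-restricted genes in each library (points), by group, RV in red and LV in blue, on the same vertical scale. Most points lie at 0, and the highest are the Cfd counts of 36 and 34 in WT RV libraries and 26 in an AAV_1E14_2.5wk LV library.

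Genes of other tissues were higher in some of these libraries. WT_RV_5819 had 59.8 CPM of Myl7 and 27.3 of Sln, both genes of atrial cardiomyocytes, where the median Myl7 over 64 libraries was 0. WT_RV_5803 had 11.3 CPM of Myl7 and 4.65 of Sln. WT_RV_2031 had 6.41 CPM of Upk3b, a gene of the mesothelium that covers the heart, against a median of 0.125. The 10 listed mesothelial and epicardial genes, Upk3b included, did not set it apart. They summed to 70.8 CPM there, within the WT RV range of 43.6 to 78.5 CPM, and Msln and Muc16 were at 0 in WT RV. In the other 4 of the 7 libraries Myl7 was at most 0.373 CPM and Upk3b at most 0.747. Outside the 7 libraries, AAV_1E14_2.5wk_LV_5755 had 14.8 CPM of Myl7 and 2 counts of the 6 genes. For Myl7, AAV_3E13_RV_2029 had 7.44 CPM and 14 counts, AAV_1E14_2.5wk_RV_5755 4.14 CPM and 1 count, and AAV_3E13_LV_5759 3.72 CPM and 17 counts. WT_RV_5813 had 5.71 CPM of Upk3b and 13 counts, and WT_RV_13 had 3.11 CPM of Upk3b and 2 counts. The part of attached tissue in the fat counts was not tested.

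Xist, which is transcribed in female cells, exceeded 1000 CPM in 29 libraries, among them 6 of the 7. Libraries over that level had a median of 5 counts of the 6 genes (n = 29) and the others a median of 0 (n = 35). Each of the 10 group-by-ventricle sets held from 2 to 5 Xist-high libraries, and the sexes were not labelled. The part of sex in the spread was not tested. Brown fat was looked for with Ucp1, its uncoupling protein, which had 91 counts in 18 libraries. WT_LV_5823 held 36 of these (5.18 CPM) and WT_RV_5823, from the same animal by label, held 14 (2.38 CPM). Elovl3, another brown fat gene, had 2 counts in all.

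Within groups some of the fat genes varied together from library to library, namely Cidec, Retn and Cfd with Adipoq. Deviations of log2(CPM + 0.5) from group means were related over the 32 animals of each ventricle, 18 relations in all. In RV Adipoq went with Cidec (r = 0.85, rho = 0.82), with Retn (r = 0.73, rho = 0.78) and with Cfd (r = 0.58, rho = 0.57). By permutation within groups the adjusted p for r was 1.80e-04, 0.00297 and 0.0544, and for rho 1.80e-04, 8.10e-04 and 0.0302. The smallest unadjusted p, 1.00e-05 for Cidec, is the smallest that the permutations can give. Without the 2 libraries farthest from the median of Adipoq, r was 0.79, 0.81 and 0.61.

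The LV relations were looser. There Adipoq went with Cfd (r = 0.61, rho = 0.66, adjusted permutation p = 0.00600 and 0.00276) and with Cidec (r = 0.43, rho = 0.38, adjusted permutation p = 0.0149 and 0.0302), and r was 0.77 and 0.44 without the 2 farthest. For Retn r was 0.40 (adjusted permutation p = 0.124) and rho 0.51 (adjusted permutation p = 0.0302). In all 4 of the 18 relations passed on r. On deposited TPM 2 passed, Retn in RV and Cfd in LV. Within the Xist-high libraries r with Cidec was 0.97 in RV (n = 14) and 0.47 in LV (n = 15), and in the others 0.43 (n = 18) and 0.35 (n = 17). With Retn r was 0.68 and 0.46 in the Xist-high libraries, and in the others it was higher in RV and lower in LV (0.77 and 0.09). With Cfd r was 0.63 and 0.65 against 0.44 and 0.53. These counts are sparse and the points share library depth.

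No relation of Plin1 or Lep to Adipoq passed, with r = -0.06 and 0.25 in RV (adjusted permutation p = 0.945 and 0.283) and r = 0.23 and 0.21 in LV (adjusted permutation p = 0.785 and 0.643). Cebpa, Cidea, Lipe and Plin4 did not pass in either ventricle (r from -0.36 to 0.08, the lowest adjusted permutation p = 0.124). The same 4 genes are those with counts in most libraries. Adipoq in RV showed no relation to Adipoq in LV of the same animal (r = 0.02, rho = 0.07, permutation p = 0.954 and 0.764, n = 32), and r was 0.01 without the mismatched animal. Without the 2 farthest animals r was -0.17.

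The 12 genes outside the list that tracked Adipoq most closely over all 64 libraries were led by Car3 (r = 0.63), the carbonic anhydrase of adipocytes and slow muscle. Next came Cyp2e1 (r = 0.54), an oxidase of liver and fat, Elovl6 (r = 0.54), a fatty acid elongase, and Cd34 (r = 0.53), a surface protein of endothelium and of fibroblast and fat progenitors. The others were Trappc2, Slc18b1, Cxxc5, Tmem263, Lum, Colec12, Itgb8 and Col3a1, with r from 0.53 down to 0.49. Among the listed genes Cidec (r = 0.67) and Cfd (r = 0.59) stood as high. These are descriptions over 15313 genes, with no test.

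Car3 had its highest counts in WT_RV_2031 (100), WT_RV_5803 (96) and AAV_3E13_RV_5768 (83), all among the 7 libraries above, and next in AAV_3E13_RV_2029 (77), which is not. Its median over 64 libraries was 0.921 CPM. Adig, an adipocyte-specific gene, had 63 counts in 27 libraries. Adrb3, the fat-cell β-adrenergic receptor, had 38 counts in 15 libraries and was at 0 in all libraries of AAV_1E14_2.5wk RV, WT LV and cKO LV. Pck1, which makes glycerol backbone in fat, had 108 counts in 28.

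Only Cebpa, Cidea, Lipe and Plin4 passed the filter on low counts in the comparisons of 2 groups, 4 of the 10 genes. They were tested with edgeR's quasi-likelihood test, with p adjusted by the Benjamini-Hochberg method over all genes of the comparison and 0.05 as the threshold. Each vector group shares its WT or cKO libraries with the others, so their values stand side by side and are not independent.

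Cebpa (chr7:34818718-34821353), the single-exon gene of C/EBPα, was the member that rose in cKO. In RV the 4 cKO libraries held 10.4, 19.3, 19.4 and 39.7 CPM, and the 9 WT libraries ran from 0 through a median of 2.86 to 4.61 CPM. In LV the cKO libraries held 5.66, 7.52, 11.9 and 25.7 CPM and WT ran from 0 through 0.721 to 3.48 CPM. No cKO library overlapped WT in either ventricle. Of the WT libraries 1 in RV and 4 in LV were listed at 0, which may be failed estimates, and no cKO library was. The other 5 WT LV libraries held 0.721, 1.68, 2.02, 3.26 and 3.48 CPM, and the fitted LV fold includes the listed 0 values. The log2 fold changes were 3.12 ± 0.50 in RV and 3.33 ± 0.84 in LV (± SE, adjusted p = 1.61e-04 and 0.00449). By exact permutation p was 0.00140 and 0.00280. Against this, 22% of the 14150 genes tested in RV and 23.6% of the 13846 in LV were called higher in cKO, and Cebpa was the 1 member of 4 tested called higher in each.

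**Figure D3:**
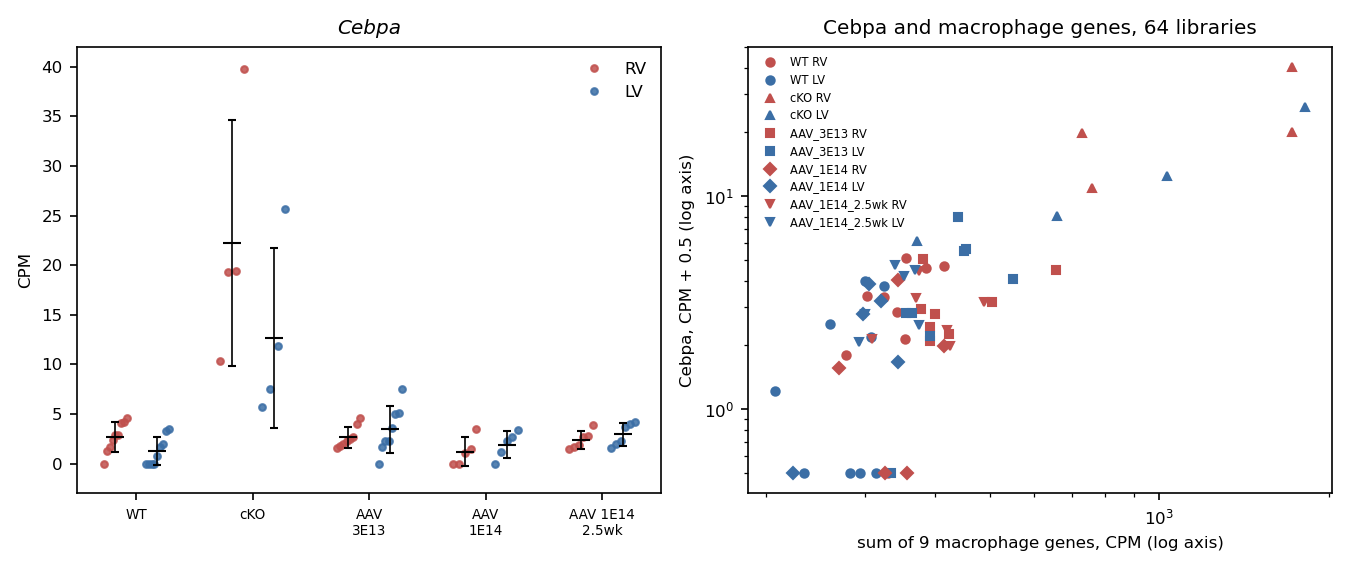
Left, Cebpa in CPM in each library by group, RV in red and LV in blue, with bars for mean ± SD. Right, Cebpa (CPM + 0.5) against the summed CPM of 9 macrophage genes, both on log axes. The cKO libraries (triangles pointing up) run from 5.66 to 39.7 CPM of Cebpa and from 371 to 1820 CPM of macrophage genes. AAV_3E13_LV_2033 lies within that Cebpa range at 7.49 CPM.

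Macrophage genes were also higher in cKO. The 9 listed genes in the table were all detected in every group, and 7 rose and 1 fell in each ventricle in cKO. Over all genes 22% and 23.6% were called higher and 20.3% and 23% lower. Ctss, which encodes cathepsin S, had log2 fold changes of 4.34 and 3.45 in RV and LV (adjusted p = 4.83e-08 and 5.18e-06). The 9 genes summed to 729, 759, 1719 and 1723 CPM in the cKO RV libraries against 277 to 414 in WT RV. In cKO LV the sums were 371, 657, 1031 and 1820 CPM against 207 to 325 in WT LV. In cKO LV Cebpa had the same order, with 5.66, 7.52, 11.9 and 25.7 CPM in these libraries. In RV cKO_RV_2006 had the highest of both (1723 and 39.7 CPM), but cKO_RV_2052 held 19.3 CPM of Cebpa at the lowest sum, 729 CPM, where cKO_RV_3217 held 19.4 at 1719 and cKO_RV_3213 held 10.4 at 759. In the same 8 libraries Adipoq had 0 or 1 count. The part of macrophages in the Cebpa difference was not tested.

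In the vector groups Cebpa values overlapped those of WT. Libraries ran from 1.59 to 4.58 CPM in AAV_3E13 RV, 0 to 3.54 in AAV_1E14 RV and 1.48 to 3.94 in AAV_1E14_2.5wk RV, with medians of 2.38, 1.06 and 2.26. In LV they ran from 0 to 7.49, 0 to 3.38 and 1.57 to 4.23 CPM, with medians of 2.96, 2.30 and 3.01. All 3 RV groups lay wholly below cKO. In LV the 2 groups at 1e+14 did, and AAV_3E13 reached into the cKO range with its highest library. Of the AAV_3E13 LV libraries 4 lay above the highest WT LV library (3.48 CPM), at 3.59, 5.02, 5.12 and 7.49 CPM. None of the 6 differences from WT passed edgeR, and limma on log2(TPM + 1) called Cebpa in AAV_3E13 LV.

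Against cKO, Cebpa fell by 3.12, 4.22 and 3.23 log2 units in RV for AAV_3E13, AAV_1E14 and AAV_1E14_2.5wk (SE 0.34, 0.80 and 0.37, adjusted p = 1.68e-05, 0.00121 and 6.45e-05). In LV it fell by 1.91, 2.76 and 2.09 (SE 0.63, 0.73 and 0.44, adjusted p = 0.0499, 0.0144 and 0.00449). Genes called lower made up 22.7%, 26.4% and 25.2% of those tested in RV and 9.45%, 18.1% and 15.9% in LV. The AAV_3E13 LV call sat at the threshold, and 8 of 12 fits that left out 1 library lost it. Without cKO_LV_2006 the log2 fold change was -1.27 (adjusted p = 0.274). Without cKO_LV_3213 or any of AAV_3E13_LV_2029, AAV_3E13_LV_2045, AAV_3E13_LV_2047, AAV_3E13_LV_2048, AAV_3E13_LV_5768 and AAV_3E13_LV_5809 it ran from -2.01 to -1.79 (adjusted p from 0.0588 to 0.0873). Without cKO_LV_2006 the AAV_1E14 LV value was -2.15 (adjusted p = 0.0502). Without the mismatched animal the AAV_1E14_2.5wk values were -3.12 in RV and -2.03 in LV (adjusted p = 2.59e-04 and 0.0123). In 9 libraries Cebpa was listed at 0 while the lowest value above 0 was 5 counts, so a listed 0 may be a failed estimate.

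Of 18 adipogenic regulators, Cebpa included, 16 were tested, and in cKO RV 4 rose and 2 fell, in cKO LV 3 rose and 1 fell. Over all genes 22% were called higher and 20.3% lower in cKO RV, and 23.6% and 23% in cKO LV. Cebpb, an early factor of fat cell differentiation and of inflammation, had log2 values of 1.08 ± 0.24 in RV and 0.26 ± 0.25 in LV (± SE) and passed in RV (adjusted p = 0.00186 and 0.424). Pparg, which encodes the master regulator PPARγ and is named here outside the rule for named genes, had values of 0.24 and 0.23 (adjusted p = 0.451 and 0.346). Zfp423, a marker of committed preadipocytes, rose by 0.77 in RV and 1.23 in LV (SE 0.22 and 0.22, adjusted p = 0.0106 and 3.15e-04). Klf15, a factor that also serves the cardiomyocyte's daily lipid cycle, fell by 1.47 and 1.93 (adjusted p = 4.58e-04 and 0.00518).

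Cidea (chr18:67476317-67501224) encodes the CIDE protein of brown fat droplets, which the heart also makes at a low level. It had 3927 counts and was present in every library. In LV the cKO libraries held 2.83, 3.13, 4.12 and 7.20 CPM, and WT ran from 5.01 through 8.08 to 10.05 CPM. The highest cKO library overlapped WT. Cidea fell by 0.88 log2 units in cKO LV (SE 0.28, adjusted p = 0.0183, and 0.00559 by exact permutation), where 23% of genes were called lower. In RV the cKO libraries ran from 1.31 to 8.54 CPM, WT from 2.26 to 12.3 CPM, and the log2 fold change was -0.57 (SE 0.43, adjusted p = 0.308). Leaving out cKO_LV_2006 or cKO_LV_2052 ended the LV call (-0.76 and -0.72, adjusted p = 0.0590 and 0.0616), as did limma on log2(TPM + 1) (adjusted p = 0.0674).

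The 2 vector groups at 1e+14 held more Cidea than cKO in LV. The AAV_1E14 libraries held 6.35, 10.1, 11.3, 12.1 and 13.1 CPM. The AAV_1E14_2.5wk libraries ran from 7.28 through 9.62 to 12.4 CPM, all above cKO. Cidea rose by 1.25 (SE 0.33, adjusted p = 0.0146) and 1.15 log2 units (SE 0.30, adjusted p = 0.0122), beside 17.3% and 17.4% of genes called higher. Without the mismatched animal the second value was 1.16 (adjusted p = 0.0245). AAV_1E14 LV also exceeded AAV_3E13 LV (4.00 through 6.30 to 8.97 CPM) by 0.64 (SE 0.21, adjusted p = 0.0488, exact permutation p = 0.0140), where 10.8% of genes were called higher. That call was lost in 9 of 13 fits that left out 1 library, namely AAV_1E14_LV_2034, AAV_1E14_LV_5726, AAV_1E14_LV_5822 or AAV_1E14_LV_5825 or AAV_3E13_LV_2045, AAV_3E13_LV_2047, AAV_3E13_LV_2048, AAV_3E13_LV_5759 or AAV_3E13_LV_5809 (0.54 to 0.66, adjusted p from 0.0637 to 0.148). Cardiomyocyte genes moved along, since the 10 ventricular genes summed to 7797 to 22321 CPM in cKO LV and 32295 to 55840 CPM in AAV_1E14 LV. Their part in the Cidea difference was not tested.

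**Figure D4:**
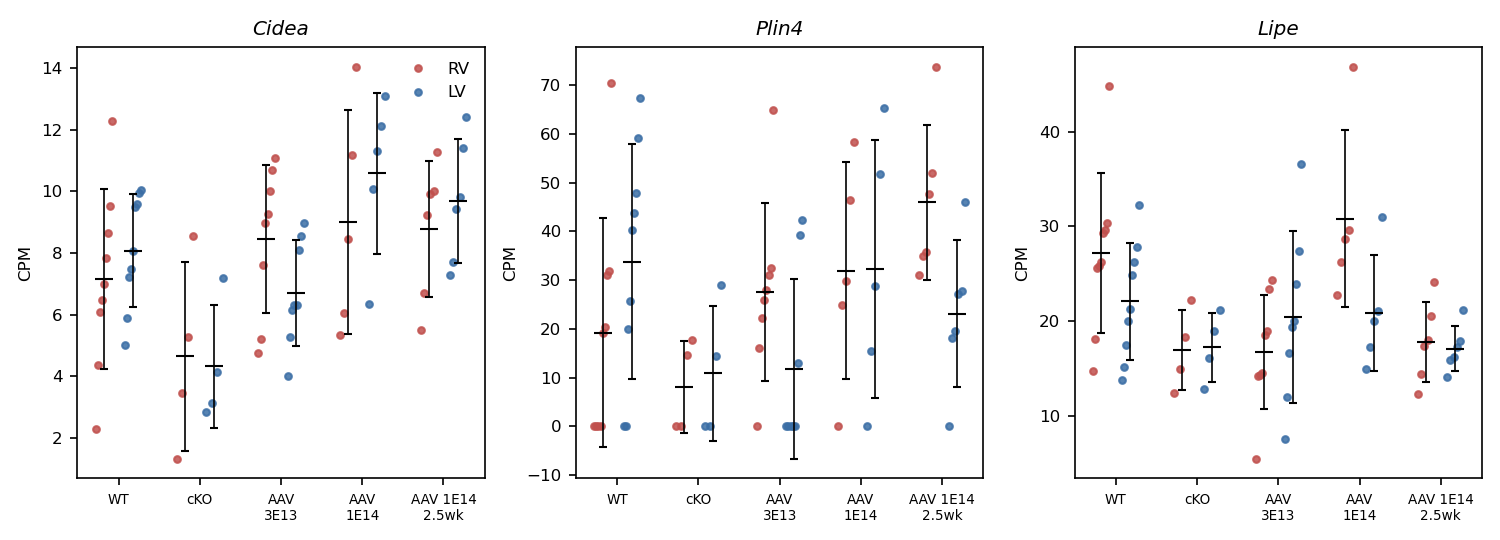
Cidea, Plin4 and Lipe in CPM in each library by group, RV in red and LV in blue, with bars for mean ± SD; bars that reach below 0 come from libraries at 0. Plin4 has 19 of 64 libraries at exactly 0 and none between 0 and 13 CPM.

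Lipe (chr7:25078880-25098135) encodes hormone-sensitive lipase, which cleaves diacylglycerol in fat, heart and steroid-making cells. Its values lay between 5.49 and 46.9 CPM in all 64 libraries. WT RV ran from 14.7 through 26.2 to 44.9 CPM, AAV_3E13 RV from 5.49 through 16.5 to 24.3 and AAV_1E14_2.5wk RV from 12.4 through 17.7 to 24.2. The groups overlapped. Lipe fell by 0.70 log2 units in AAV_3E13 RV and by 0.61 in AAV_1E14_2.5wk RV (SE 0.23 and 0.20, adjusted p = 0.0390 and 0.0253, and 0.00897 and 0.0204 by exact permutation), beside 10% and 18.5% of genes called lower. Without the 3 WT RV libraries with the most fat counts, an alternative chosen after seeing the data, these were -0.70 (adjusted p = 0.0954) and -0.62 (adjusted p = 0.0545). The AAV_3E13 call was lost in 10 of 17 fits that left out 1 library, namely WT_RV_13, WT_RV_2004, WT_RV_2040, WT_RV_5803, WT_RV_5819 or WT_RV_5823 or AAV_3E13_RV_2029, AAV_3E13_RV_2045, AAV_3E13_RV_2047 or AAV_3E13_RV_2048 (adjusted p from 0.0505 to 0.0756). The AAV_1E14_2.5wk call was lost without AAV_1E14_2.5wk_RV_5806 (-0.52, adjusted p = 0.0627) or AAV_1E14_2.5wk_RV_5807 (-0.56, adjusted p = 0.0598), and without the mismatched animal it was -0.66 (adjusted p = 0.0325). On log2(TPM + 1) in limma neither was called (adjusted p = 0.259 and 0.395).

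Lipe in cKO RV did not pass the test against WT. The cKO RV libraries ran from 12.4 through 16.6 to 22.2 CPM, below the WT RV mean of 27.2 ± 8.48 CPM, and the edgeR value was -0.61 (SE 0.24, adjusted p = 0.0533). AAV_1E14 RV held 22.7, 26.2, 28.7, 29.6 and 46.9 CPM, all above cKO. There Lipe rose by 0.84 against cKO (SE 0.24, adjusted p = 0.0129, exact permutation p = 0.0159), with 24.2% of genes called higher. It was lower in AAV_1E14_2.5wk RV than in AAV_1E14 RV, with 3.95% of genes called lower (log2 fold change -0.78, SE 0.20, adjusted p = 0.0313). That call was lost in 7 of 11 fits that left out 1 library, namely AAV_1E14_RV_2034, AAV_1E14_RV_2043 or AAV_1E14_RV_5822 or AAV_1E14_2.5wk_RV_5755, AAV_1E14_2.5wk_RV_5806, AAV_1E14_2.5wk_RV_5807 or AAV_1E14_2.5wk_RV_5810 (-0.80 to -0.58, adjusted p from 0.0539 to 0.0683), and without the mismatched animal it was -0.83 (adjusted p = 0.0476). Lipe in LV passed in no comparison.

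Plin4 (chr17:56406617-56416931) encodes a perilipin of small nascent droplets, known from white fat and muscle. It was listed at exactly 0 in 19 libraries and at 95 counts or more in the other 45. The 0 values were found in all groups but AAV_1E14_2.5wk RV, 4 of 9 in WT RV and 5 of 8 in AAV_3E13 LV. These 0 values may be failed estimates, which was not tested. Plin5, its neighbouring perilipin gene, was detected in all 64 libraries. It ran from 6.02 to 40.9 CPM where Plin4 was listed at 0 and from 6.92 to 65.1 CPM elsewhere. The AAV_1E14_2.5wk RV libraries held 31.1, 35.0, 35.9, 47.7, 52.0 and 73.8 CPM, and the cKO RV libraries were listed at 0, 0, 14.6 and 17.7. The fitted log2 fold change was 2.44 (SE 0.90, adjusted p = 0.0422), beside 22.6% of genes called higher. It was lost in 6 of 10 fits that left out 1 library, namely cKO_RV_3213 or AAV_1E14_2.5wk_RV_5755, AAV_1E14_2.5wk_RV_5801, AAV_1E14_2.5wk_RV_5807, AAV_1E14_2.5wk_RV_5810 or AAV_1E14_2.5wk_RV_5814 (adjusted p from 0.0504 to 0.0785), and DESeq2 gave an adjusted p of 0.116.

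In the remaining comparisons no member was called. Against WT this held for AAV_1E14 RV (29.5% of genes called), and in LV for AAV_3E13 (39.2%), AAV_1E14 (0.0075%) and AAV_1E14_2.5wk (1.49%). The dose comparison in RV (AAV_1E14 against AAV_3E13, 9.97%) and the timing comparison in LV (AAV_1E14_2.5wk against AAV_1E14, 0%) had no member either. With edgeR 1 member, Lipe in the RV dose comparison, had an unadjusted p under 0.05 there, and 0 in the other 5. DESeq2 called Lipe in the RV dose comparison and 0 members in the other 5, and limma called Cebpa in AAV_3E13 LV against WT and 0 members in the other 5. With the mitochondrially encoded genes kept, edgeR called Lipe in the RV dose comparison.

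**Figure D5:**
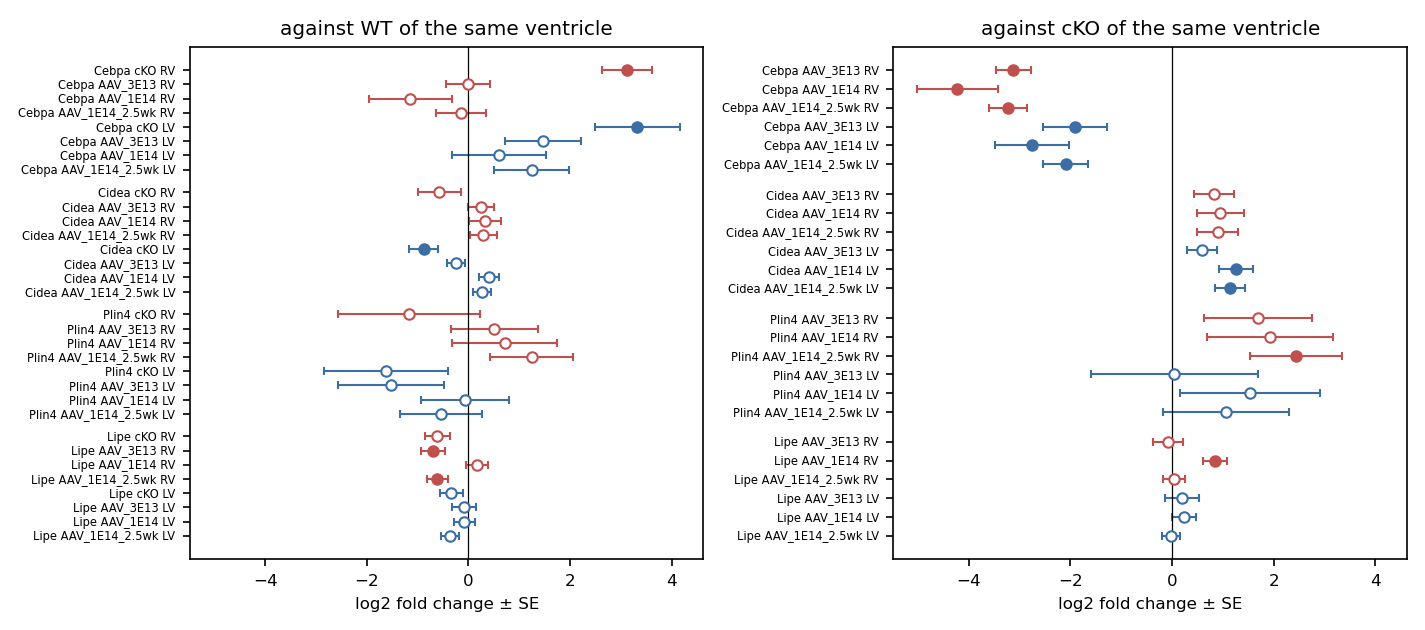
Log2 fold change ± SE (edgeR) of the 4 tested members against WT (left) and against untreated cKO (right) of the same ventricle, RV in red and LV in blue; filled points passed the adjusted threshold. Cebpa stands at 3.12 and 3.33 in cKO and at -1.91 to -4.22 in the vector groups against cKO.

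Between RV and LV none of the 4 tested members was called by edgeR in any of the 5 groups. At an unadjusted p under 0.05 there was 1, Lipe in AAV_1E14 (log2 fold change 0.55, SE 0.22, adjusted p = 0.187). The calls over all genes were 27.7% in WT, 0.00726% in cKO, 20.2% in AAV_3E13, 2.95% in AAV_1E14 and 0.0226% in AAV_1E14_2.5wk. In cKO the RV to LV log2 fold change of Cebpa was 0.81 (SE 0.53, approximate 95% interval -0.24 to 1.85). That interval takes a normal multiplier, which makes it too narrow for 4 animals, and its fit did not pair the ventricles. The difference from WT was not shown to differ between ventricles either, in tests of that difference itself. There 4 or 5 members were tested and edgeR called none (0 at an unadjusted p under 0.05), beside 0.0272% of genes for cKO, 36.9% for AAV_3E13, 20% for AAV_1E14 and 18.4% for AAV_1E14_2.5wk. With the animal as a replicate block, the number of members called stayed 0 in all 9 of these comparisons.

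Some of the other adipocyte genes, among them genes that the heart uses for its own fuel, were called lower in cKO. Of 25 listed genes 24 were in the table and 20 were tested. In RV 1 rose and 7 fell, and in LV 3 rose and 6 fell. Over all genes 22% and 23.6% were called higher and 20.3% and 23% lower. Median log2 fold changes of the list were -0.23 and -0.38, against 0.02 and 0.05 over all genes. Lpl, the lipase that frees fatty acids from lipoproteins, fell by 1.86 and 2.47 log2 units (SE 0.22 and 0.25, adjusted p = 1.24e-05 and 4.72e-06). Cd36, the fatty acid transporter, fell by 1.37 and 1.55 (adjusted p = 1.43e-05 and 8.71e-06). Fabp4 fell by 0.96 in RV (adjusted p = 8.76e-05) and had -0.18 in LV (adjusted p = 0.506). Dgat2, which makes triglyceride, fell by 2.46 in LV (adjusted p = 6.03e-06). In RV its libraries were also apart, from 17.6 to 50.2 CPM in cKO and from 72.2 to 168 CPM in WT. The 10 ventricular cardiomyocyte genes fell as well, 7 in RV and 10 in LV, and their part was not tested.

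Of 17 lipid droplet and lipolysis genes, members included, 15 were tested. In RV 2 rose and 8 fell, and in LV 2 rose and 9 fell. Over all genes 22% and 23.6% were called higher and 20.3% and 23% lower. Plin2, the coat of droplets in most cells including foam cells, rose by 1.32 and 1.33 log2 units (SE 0.25 and 0.26, adjusted p = 7.05e-04 and 7.38e-04). Fitm2, which buds droplets from the endoplasmic reticulum, fell by 1.78 and 2.25 (adjusted p = 8.23e-05 and 4.14e-06). Pnpla2 fell by 1.03 and 1.34 (adjusted p = 7.62e-04 and 1.10e-04). Of the 15 brown fat genes 10 were tested, and 6 fell in RV and 7 in LV, led by Ppargc1a (log2 fold changes of -1.62 and -1.86). These are genes of mitochondria-rich muscle too. Over all genes 20.3% and 23% were called lower. Not all of the list fell. Dio2 ran from 19.7 to 66.1 CPM in cKO RV, above the 1.91 to 13.2 CPM of WT RV. In LV its ranges overlapped, with 10.7 to 74.1 CPM in cKO and 6.36 to 23.1 CPM in WT.

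Adipor1 and Adipor2, the adiponectin receptors, had medians of 126 and 90.9 CPM, and Cdh13, which binds adiponectin on endothelium, 226 CPM. All 7 listed receptor genes were tested, and 2 rose and 3 fell in cKO RV, 1 rose and 5 fell in LV, beside 22% higher and 20.3% lower of all genes in RV and 23.6% and 23% in LV. Lepr, the leptin receptor, fell by 1.45 and 1.67 log2 units (adjusted p = 0.00182 and 0.00149). Downstream of adipsin, 8 of 9 alternative complement genes were tested, and 4 rose and 1 fell in each ventricle, beside 22% and 23.6% of all genes called higher. C3ar1, the receptor for C3a on myeloid cells, rose by 3.27 and 3.16 (SE 0.23 and 0.41, adjusted p = 2.00e-07 and 2.54e-05).

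Of 12 tested fibroblast genes, which fibro-adipogenic progenitors share, 6 rose and 2 fell in cKO RV and 4 rose and 1 fell in LV. Over all genes 22% and 23.6% were called higher and 20.3% and 23% lower. Pi16, a marker of adventitial fibroblasts, rose by 1.56 and 1.36 log2 units (SE 0.35 and 0.44, adjusted p = 0.00205 and 0.0193). Pdgfra, also named outside the rule, is the receptor that defines fibro-adipogenic progenitors and had log2 fold changes of 0.15 and 0.35 (adjusted p = 0.466 and 0.123).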

How the data were processed

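RV and LV RNA of 32 mice was sequenced by the study. Per the labels and the study's methods, reads were trimmed with fastp and quantified with Salmon 1.8.0 (GRCm39), and the authors deposited estimated counts per gene, TPM and effective lengths. RNA selection is uncertain, since the protocol names both polyA and ribosomal depletion. Strand counting is not given in the sources used here, and Plin4, Cidec, Cidea, Cebpa, Lipe and Adipoq overlap other annotated genes, so their counts are uncertain to that extent. The deposited TPM values were used for levels per length.

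The members and lists were chosen with earlier results of these data known. Estimated counts were rounded, mitochondrially encoded genes (16.6% to 40.2% of counts) and a row without a name (at most 0.00136%) were left out, and 2 groups at a time were compared with edgeR 4.0.16 in R 4.3.3 (TMM, filterByExpr, quasi-likelihood F test, Benjamini-Hochberg, threshold 0.05). Exact permutation tests used log2(CPM + 0.5). Correlations used 100000 permutations within groups. Libraries are separate animals within a ventricle. Animal numbers pair RV and LV by label: deviations from group means over 15314 genes correlated with a median r of 0.127 (-0.0366 to 0.573), over 0.1 in 21 of 32 animals. Alternatives were DESeq2 1.42.0, no filter, robust estimation, limma 3.58.1 on log2(TPM + 1), mitochondrial genes kept, an animal block and leaving out each library. All 10 members were described, with folds for called members and Adipoq, and up to 3 called genes of smallest p from other lists. The code was tested on simulated data.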

Additional observations from a re-analysis of the deposited data

Results flagged for a closer look

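In groups of 4 to 10 libraries, 87 sets of a gene's CPM values were checked for a highest or lowest library that stood apart from the rest by Dixon's 95% critical value, and 34 had a highest library that did. Chance gives about 1 in 20 sets, and a set with 1 library above 0 is marked by construction. Most values rest on few counts, and no cause was tested.

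For Adipoq these were 0.120 CPM in AAV_1E14_RV_5726 (1 count), 0.106 CPM in cKO_LV_3217 (1 count) and 0.497 CPM in AAV_1E14_2.5wk_LV_5806 (4 counts). The Cfd values were 1.71 CPM in AAV_3E13_RV_5768 (16 counts), 1.56 CPM in AAV_1E14_RV_5726 (13 counts), 1.56 CPM in WT_LV_5803 (11 counts), 0.419 CPM in cKO_LV_2052 (4 counts) and 3.23 CPM in AAV_1E14_2.5wk_LV_5806 (26 counts). Plin1 stood at 1.32 CPM in WT_RV_5819 (10 counts), 1.28 CPM in WT_LV_5803 (9 counts), 0.547 CPM in AAV_3E13_LV_2045 (4 counts), 0.520 CPM in AAV_1E14_LV_5726 (4 counts) and 0.127 CPM in AAV_1E14_2.5wk_LV_5814 (1 count). Cidec gave 0.0876 CPM in cKO_RV_3217 (1 count), 0.240 CPM in AAV_1E14_RV_5726 (2 counts), 0.117 CPM in AAV_1E14_2.5wk_RV_5806 (1 count), 0.576 CPM in WT_LV_5823 (4 counts), 0.106 CPM in cKO_LV_3217 (1 count), 0.816 CPM in AAV_3E13_LV_2029 (6 counts) and 1.56 CPM in AAV_1E14_LV_5726 (12 counts). Lep, never above 3 counts, gave 0.132 CPM in WT_RV_5819 (1 count), 0.0958 CPM in cKO_RV_2052 (1 count), 0.233 CPM in AAV_3E13_RV_2029 (2 counts), 0.312 CPM in AAV_1E14_2.5wk_RV_5807 (3 counts), 0.144 CPM in WT_LV_5823 (1 count), 0.136 CPM in AAV_3E13_LV_2029 (1 count), 0.128 CPM in AAV_1E14_LV_5825 (1 count) and 0.127 CPM in AAV_1E14_2.5wk_LV_5814 (1 count). Retn stood at 0.350 CPM in AAV_1E14_2.5wk_RV_5806 (3 counts), 0.721 CPM in WT_LV_5813 (5 counts), 0.640 CPM in AAV_3E13_LV_5768 (6 counts) and 0.994 CPM in AAV_1E14_2.5wk_LV_5806 (8 counts). Of the genes with higher counts, Plin4 stood at 70.5 CPM in WT_RV_13 (544 counts). Lipe reached 46.9 CPM in AAV_1E14_RV_2043 (331 counts).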

How the results depend on the processing

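No fold change or count reversed its direction under any alternative. Numbers of members called changed as follows, and the cause was not tested unless named. DESeq2 called 2 in cKO RV against WT (Cebpa, Lipe) and 1 in AAV_1E14 against AAV_3E13 RV (Lipe), as did keeping the mitochondrially encoded genes. Robust estimation called 2 in cKO RV against WT, 1 in AAV_1E14_2.5wk RV against cKO and 0 in AAV_3E13 LV against cKO. With no filter, which tests more genes, there were 0 in AAV_3E13 RV against WT, 3 in AAV_1E14_2.5wk RV against WT (Cfd, Cidec, Lipe), 0 in AAV_3E13 LV against cKO, 0 in AAV_1E14 against AAV_3E13 LV and 1 (Cfd) in the ventricle difference of AAV_1E14_2.5wk. With limma on log2(TPM + 1) there were 0 in AAV_3E13 RV and 1 in cKO LV and in AAV_3E13 LV against WT (Cebpa in both), 0 in AAV_1E14_2.5wk against AAV_1E14 RV and in AAV_1E14 against AAV_3E13 LV, and 1 (Plin4) in the ventricle difference of AAV_3E13. Without the 3 WT RV libraries with the most fat counts, AAV_3E13 RV and AAV_1E14_2.5wk RV against WT had 0 with fewer samples. With the animal as a replicate block, 0 members were called in all 9 ventricle comparisons, as without it. Relations with Adipoq that passed were 2 on TPM and 4 on CPM. Leaving out 1 library at a time gave 1 to 2 members in cKO RV against WT, cKO LV against WT, AAV_3E13 RV, AAV_1E14_2.5wk RV and AAV_1E14 LV against cKO, 2 to 3 in AAV_1E14 RV against cKO, 0 to 2 in AAV_3E13 LV against cKO, and 0 to 1 in AAV_3E13 RV and AAV_1E14_2.5wk RV against WT, in both dose comparisons and in the RV timing comparison. Cebpa in cKO against WT passed in all 13 such fits of each ventricle. At 5.34 M to 10.2 M counts per library, Adipoq, Cfd, Lep, Retn, Plin1 and Cidec did not pass the filter on low counts in any comparison of 2 groups.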
